A study of Mus musculus with 8 samples.

Results

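This report covers 10 genes of excitation-contraction coupling and calcium handling, the machinery by which a muscle fiber turns an electrical signal into a rise of cytosolic calcium and then pumps that calcium away. The genes are Ryr1, Casq1, Atp2a1, Atp2a2, Sln, Cacna1s, Cacnb1, Jph1, Jph2 and Stac3. They were chosen by name for their function, 10 of 21887 protein-coding genes in the annotation table. This choice, and that of the other gene lists used below, was made with earlier results of these data known. Binding of phosphorylated CREB1, the active form of a factor that switches on genes in response to cAMP, was mapped around them by ChIP-seq in muscle of male Balb/c mice. C26 mice carried a subcutaneous tumor grown from C26 mouse colon adenocarcinoma cells given at the age of 2 months, which is a model of cancer cachexia, and CTRL mice were the controls. All tumors came from 1 cell line. There were 2 phospho-CREB1 libraries for C26 and 2 for CTRL, each with a peak list of its own, called against an input library of the same group. Gastrocnemius is given as the tissue in the sample labels and quadriceps in the ChIP protocol, so it is called muscle here. The treatment protocol gives tumor-bearing mice rolipram, an inhibitor of cAMP breakdown, or vehicle, and does not tell which was given to the mice used for ChIP-seq. Nothing in the labels says whether the 2 libraries of a group came from separate mice, so the spread between them may be technical.

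In a muscle fiber, an action potential runs into the T-tubules, where the voltage sensor sits opposite the calcium release channel of the sarcoplasmic reticulum. The sensor opens the channel, stored calcium flows out and the fiber contracts, and calcium pumps refill the store. Junctophilins hold the T-tubule and the sarcoplasmic reticulum together at this junction, the triad.

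A peak was assigned to a gene when its summit lay inside the gene span or within 10000 bp of it. Of the 51 peaks assigned in this way, 9 came from C26 libraries and 42 from CTRL libraries. By library there were 6 in C26 replicate 1, 3 in C26 replicate 2, 15 in CTRL replicate 1 and 27 in CTRL replicate 2. Sln was the 1 gene with no peak in any library, as were 43.6% of all protein-coding genes. A peak was found at 1 of the 10 genes in both C26 libraries, against 21.1% of all protein-coding genes, and at 7 of the 10 in both CTRL libraries, against 45.4%. By single library, 5 of the 10 had a peak in C26 replicate 1 (37.8% of all genes), 2 in C26 replicate 2 (22.8%), 7 in CTRL replicate 1 (47.3%) and 9 in CTRL replicate 2 (53.8%). Without C26 replicate 2, the count for the C26 group was 5 rather than 1, and without C26 replicate 1 it was 2. The gene spans ran from 3599 bp (Sln) to 155819 bp (Jph1), and a longer span leaves more room for a peak. Fewer bound fibers, less binding per fiber and a library in which fewer peaks could be detected cannot be told apart in such tissue samples.

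**Figure D1:**
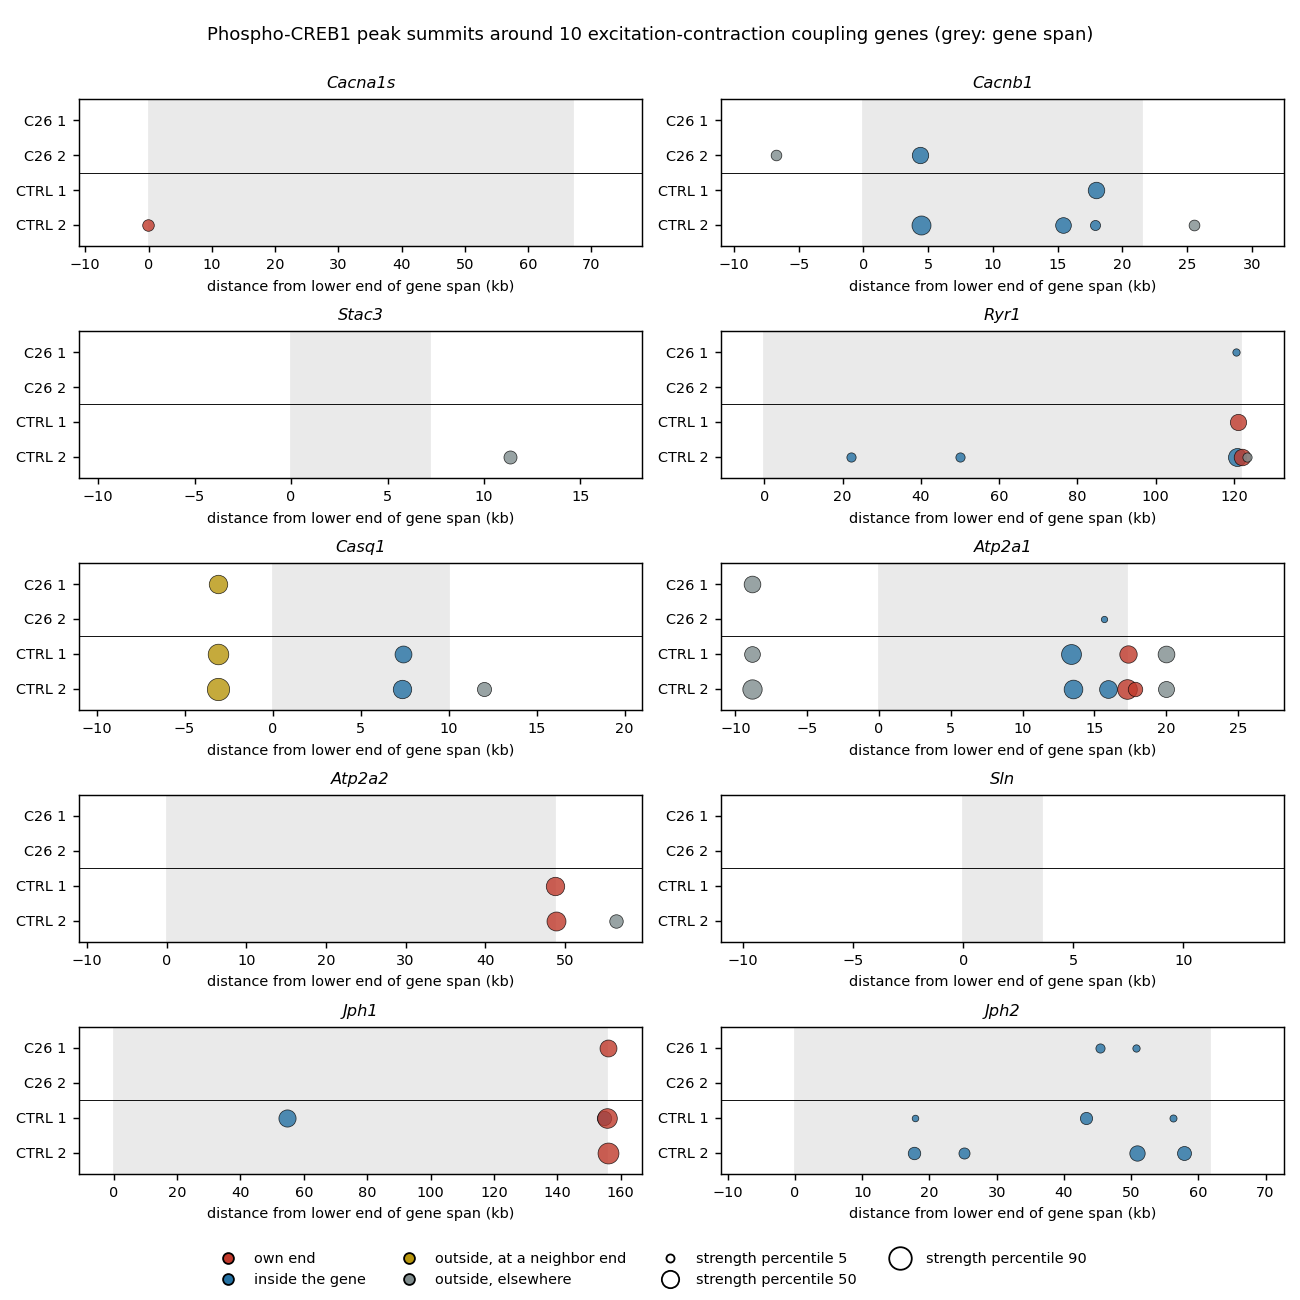
Position of each peak summit around the 10 genes, with the distance from the lower-coordinate end of the gene span in kb on the x axis and the 4 phospho-CREB1 libraries as rows, C26 above CTRL. The grey band is the gene span, the size of a circle is the strength percentile of the peak within its own list, and the color says where the summit lay. Most circles lie in the CTRL rows, and the Sln panel has none.

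The strength of a peak is given in 2 forms, both of which come from values of the authors' peak caller. The fold enrichment is the signal over input at the summit, and the percentile is its rank by −log10 q among the peaks of the same library, where the strongest has 100. Both depend on the list they come from, so a higher value in 1 list than in another does not by itself show stronger binding. Read depth is unknown, and a gene without a peak is a gene where nothing passed the authors' q threshold of 0.05 in that library.

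Promoter sequences of 300 bases, from 250 bases before to 50 after a transcription start, were at hand for 6 of the 10 genes (RefSeq, GRCm38.p6). None was at hand for Atp2a2, Jph1, Sln and Stac3. Of these, Atp2a2 and Jph1 had a peak within 1000 bp of a gene end in both CTRL libraries. The 3 promoters at hand that held a peak summit were those of Atp2a1, Ryr1 and Cacna1s. They are shown because they are the listed start sites at which the protein was mapped. No C26 summit lay in any of the member promoters. The summits came from both CTRL libraries at Atp2a1 and from CTRL replicate 2 alone at Ryr1 and Cacna1s. In the sequences that follow, written 5′ to 3′ on the strand of the gene, capitals mark the core motif of the cAMP response element, TGACG or its reverse complement CGTCA. The Atp2a1 promoter is chr7:126463024-126463323 (minus strand), that of Ryr1 is chr7:29125102-29125401 (minus strand) and that of Cacna1s is chr1:136052561-136052860 (plus strand).
Atp2a1: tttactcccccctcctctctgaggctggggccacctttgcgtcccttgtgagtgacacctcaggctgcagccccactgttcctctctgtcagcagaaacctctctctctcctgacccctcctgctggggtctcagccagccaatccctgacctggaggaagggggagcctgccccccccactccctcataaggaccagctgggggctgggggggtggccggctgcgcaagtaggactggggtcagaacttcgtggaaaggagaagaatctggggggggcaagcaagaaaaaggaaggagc
Ryr1: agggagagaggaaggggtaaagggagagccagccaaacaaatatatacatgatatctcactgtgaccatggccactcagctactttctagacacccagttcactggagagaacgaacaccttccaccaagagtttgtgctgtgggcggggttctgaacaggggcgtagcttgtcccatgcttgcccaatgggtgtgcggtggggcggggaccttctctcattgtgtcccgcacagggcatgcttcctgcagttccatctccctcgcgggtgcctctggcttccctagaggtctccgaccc
Cacna1s: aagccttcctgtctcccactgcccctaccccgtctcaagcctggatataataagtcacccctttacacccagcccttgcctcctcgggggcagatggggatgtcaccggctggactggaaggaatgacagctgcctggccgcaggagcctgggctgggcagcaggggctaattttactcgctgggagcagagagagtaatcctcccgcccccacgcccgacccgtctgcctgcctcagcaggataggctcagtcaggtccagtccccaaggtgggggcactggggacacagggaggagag

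None of these sequences has a capital letter. The core motif was in 0 of the 8 promoter sequences listed for Atp2a1, Cacna1s, Cacnb1, Casq1, Jph2 and Ryr1 (Cacnb1 and Jph2 have 2 starts each), and neither was the full palindrome TGACGTCA, which contains the core motif on both strands. Among all 32851 promoter sequences of the same length, 20.8% held a core motif and 1.79% the palindrome. Among the 1683 with a summit in all 4 libraries the shares were 76.3% and 16.6%, among the 4835 with a summit in both CTRL libraries 52.9% and 7.96%, and among the 24943 with no summit 13.8% and 0.666%. A search for letters says nothing about sites outside these windows.

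For contrast, 2 promoters of other calcium genes that held a summit in all 4 libraries are shown. Of the 12 promoter sequences listed for the other calcium genes with the strongest peaks, 4 held a summit in all 4 libraries, those of Calm3, Homer1, Orai1 and Smdt1. Homer1 and Smdt1 were chosen after their sequences were seen, the first for the most core motifs and the other for the only palindrome, while Calm3 and Orai1 had 1 core motif each and 5 of the 12 sequences had none. Homer1 encodes a scaffold protein that links calcium channels (chr13:93303507-93303806, plus strand), and Smdt1 encodes a subunit of the mitochondrial calcium uniporter (chr15:82345796-82346095, plus strand).
Homer1: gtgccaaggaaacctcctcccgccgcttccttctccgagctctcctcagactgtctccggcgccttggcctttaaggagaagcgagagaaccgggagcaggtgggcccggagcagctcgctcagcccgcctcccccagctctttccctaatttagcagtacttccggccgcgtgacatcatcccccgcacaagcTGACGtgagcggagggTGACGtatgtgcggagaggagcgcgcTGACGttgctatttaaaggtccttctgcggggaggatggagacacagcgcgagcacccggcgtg
Smdt1: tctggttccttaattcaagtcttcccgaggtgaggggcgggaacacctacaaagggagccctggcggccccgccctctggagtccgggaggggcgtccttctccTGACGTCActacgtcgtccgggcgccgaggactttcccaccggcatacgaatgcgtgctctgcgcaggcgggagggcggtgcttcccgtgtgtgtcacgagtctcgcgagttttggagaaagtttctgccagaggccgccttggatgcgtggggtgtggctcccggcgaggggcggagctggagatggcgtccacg

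The Homer1 sequence holds 3 core motifs, and the pair of overlapping core motifs in Smdt1 makes up the full palindrome.

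Of the voltage sensor genes, Cacna1s and Stac3 had 1 assigned peak each and Cacnb1 had 7. Cacna1s encodes the pore-forming subunit of the sensor, the dihydropyridine receptor. It had no peak in either C26 library or in CTRL replicate 1, and 1 peak in CTRL replicate 2 (chromosome 1, 136052661 to 136052928, 4.90-fold enrichment, percentile 18.4), with the summit 65 bp upstream of the transcription start. The nearest summits to the gene in C26 replicates 1 and 2 lay 286877 and 295439 bp away. Stac3 encodes an adaptor that joins the sensor to the release channel. No library had a peak inside Stac3 or within 1000 bp of its ends. Its only assigned peak, in CTRL replicate 2, lay 4161 bp beyond the upper end of the span, inside the neighboring gene Ndufa4l2 (5.37-fold, percentile 25.1).

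Cacnb1, which encodes the β subunit that brings the sensor to the membrane, had peaks inside the gene and none within 1000 bp of its ends. A site at chromosome 11, 98005760 to 98006235 had a peak of 6.50-fold in C26 replicate 2 and of 8.75-fold in CTRL replicate 2, with summits 36 bp apart. It was absent from replicate 1 of both groups. A second site, 98019291 to 98019605, had no C26 peak, and peaks of 6.61-fold in CTRL replicate 1 and 4.45-fold in CTRL replicate 2. Its summits lay 1112 and 1064 bp upstream of the inner listed start of the gene (98018372), and downstream of the outer one (98022627). C26 replicate 2 also had a peak of 4.99-fold, 6736 bp below the span, inside the neighboring gene Arl5c. No other library had a peak there. CTRL replicate 2 had a further peak inside Cacnb1 (6.42-fold) and 1 beyond it, inside the ribosomal protein gene Rpl19 (4.44-fold).

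Ryr1, the calcium release channel of the sarcoplasmic reticulum, had a site just inside the gene at chromosome 7, 29123582 to 29124605. The peak there reached 3.29-fold in C26 replicate 1 (percentile 2.86) and was missing in C26 replicate 2, against 6.62-fold in CTRL replicate 1 (percentile 43.4) and 8.03-fold in CTRL replicate 2 (percentile 54.8). The summits lay 1224, 911 and 1124 bp downstream of the transcription start in the same order. The start itself was covered in 1 library, CTRL replicate 2, by a separate peak of 6.88-fold with its summit 160 bp upstream. That library alone had 2 more peaks deep inside Ryr1 and 1 peak 1506 bp beyond its upper end, each of 4.28-fold and at percentile 8.95. The C26 replicate 1 peak ranked among the weakest of its list.

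Casq1 encodes calsequestrin, the main calcium-binding protein of the store. No C26 library had a peak inside it. Both CTRL libraries had a peak at chromosome 1, 172217061 to 172217503, inside the gene, of 6.43-fold in replicate 1 (percentile 47.2) and 8.36-fold in replicate 2 (percentile 57.7), with summits 2564 and 2661 bp downstream of the start. The C26 peak that the 10000-bp window assigned to Casq1 lay 3112 bp below the span, at the end of the neighboring gene Pea15a. That site, 172206556 to 172207185, reached 6.19-fold in C26 replicate 1 (percentile 58.0), and 11.3- and 19.3-fold in CTRL replicates 1 and 2 (percentiles 73.5 and 87.9). It was the strongest peak assigned to any of the 10 genes in C26 replicate 1 and in both CTRL libraries by percentile, and it is nearer to Pea15a than to Casq1. CTRL replicate 2 alone had a further peak 2024 bp upstream of the Casq1 start (5.61-fold, percentile 30.9).

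Atp2a1 encodes SERCA1, the calcium pump of fast fibers, and had the most peaks, 12. A site inside the gene at chromosome 7, 126458565 to 126459621 had no C26 peak, and CTRL replicates 1 and 2 had 9.97- and 7.99-fold enrichment there (percentiles 68.3 and 59.4). At the transcription start there was likewise no C26 peak. CTRL replicates 1 and 2 had peaks of 7.23- and 9.54-fold there (percentiles 50.6 and 66.5), with summits 132 and 84 bp upstream of the start, inside the promoter printed above. Another site, 126461505 to 126462047, had a peak of 3.67-fold in C26 replicate 2 (percentile 0.247) and of 7.85-fold in CTRL replicate 2 (percentile 53.0), with summits 297 bp apart. The C26 peak was near the bottom of its list. Both CTRL libraries shared a further site outside the gene, 2768 and 2769 bp beyond its upper end (6.78- and 6.54-fold in replicates 1 and 2), with no C26 peak. CTRL replicate 2 also had a peak with its summit 603 bp beyond that end (5.85-fold, percentile 32.8).

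Atp2a1 was also the 1 gene with an assigned peak in all 4 libraries, a pattern of 20.8% of all protein-coding genes. It met this rule through peaks at different places. The C26 replicate 1 peak lay 8828 bp below the span, inside the neighboring gene Rabep2 (6.64-fold), where CTRL replicates 1 and 2 had 5.35- and 9.78-fold peaks, and the C26 replicate 2 peak was the weak one inside Atp2a1. With a window of 5000 bp or less, none of the 10 genes had a peak in both C26 libraries. The share of all genes at these windows was not computed.

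Atp2a2 encodes SERCA2, the pump of slow fibers and, as a second isoform, of most other cells. It had no peak in either C26 library, and the nearest C26 summits lay 31380 and 52706 bp from the span in replicates 1 and 2. Both CTRL libraries had a peak at its upper end, chromosome 5, 122502036 to 122502593, of 7.32-fold in replicate 1 (percentile 57.7) and 9.18-fold in replicate 2 (percentile 61.5), with summits 90 and 182 bp beyond the end. Under the 10000-bp rule it was the 1 gene with peaks in both CTRL libraries and in no C26 library, a pattern of 8.72% of all protein-coding genes. This count was 5 without C26 replicate 1, 2 without C26 replicate 2 and 3 without CTRL replicate 1. The 8.72% is not a fit measure for these counts, since the share of all genes with a library left out was not computed. CTRL replicate 2 had another peak 7658 bp beyond the same end (5.51-fold). Sln encodes sarcolipin, a small membrane peptide that inhibits SERCA pumps. Its nearest summits lay 182708 and 602101 bp away in C26 replicates 1 and 2, and 182710 and 182785 bp away in CTRL replicates 1 and 2.

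**Figure D2:**
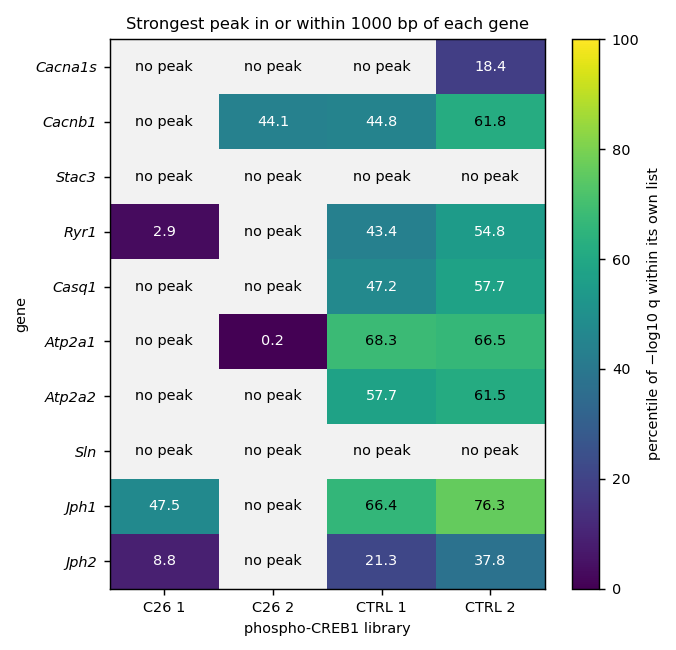
Strength percentile, within its own list, of the strongest peak inside each gene or within 1000 bp of its ends (rows) in each phospho-CREB1 library (columns, C26 left of CTRL). C26 replicate 1 has a value for 3 genes and C26 replicate 2 for 2, and the highest value is 76.3 for Jph1 in CTRL replicate 2.

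The junctophilins showed 2 different layouts. Jph1, the isoform typical of skeletal muscle, had 3 of its 5 peaks within 1000 bp of its upper end and another with the summit 1033 bp inside it. The site at chromosome 1, 17096693 to 17098278 had a peak of 5.90-fold in C26 replicate 1 (percentile 47.5), none in C26 replicate 2, and peaks whose strongest reached 9.29-fold in CTRL replicate 1 (percentile 66.4) and 12.9-fold in CTRL replicate 2 (percentile 76.3). The summits of these 3 peaks lay 113, 5 and 143 bp beyond the end of the span. It was the strongest site at or inside any of the 10 genes in the C26 replicate 1 list and in the CTRL replicate 2 list. Jph1 was also the 1 gene of the 10 with a gene-end peak in a C26 library. The ends of 2 non-coding genes, Gm46085 and Gm31982, lay within 1000 bp of these summits. CTRL replicate 1 alone had a peak far inside Jph1 (7.49-fold, 54712 bp from the lower end).

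Jph2, the isoform that is also the main junctophilin of the heart, had 9 peaks, all inside the gene, spread over 7 sites. The C26 replicate 1 list had 2 of them, of 4.31- and 3.29-fold (percentiles 8.75 and 2.86), and C26 replicate 2 had none. CTRL replicate 1 had 3, of 3.38-, 4.74- and 3.61-fold, and CTRL replicate 2 had 4, of 4.90-, 4.82-, 6.13- and 5.38-fold. All 9 were at or below percentile 37.8 in their lists. Only 2 of the 7 sites were seen in more than 1 library. The site at chromosome 2, 163386825 to 163387173 was shared by C26 replicate 1 and CTRL replicate 2, and 163353808 to 163354127 by the 2 CTRL libraries.

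Merged where they overlapped by at least 1 bp, the 51 peaks formed 31 sites. No site had a peak in both C26 libraries. A peak in at least 1 C26 library was found at 9 sites, of which 7 also had a CTRL peak, and both CTRL libraries had a peak at 11 sites, of which 7 had none in C26 muscle. The 2 sites without a CTRL peak were the C26 replicate 2 peak inside Arl5c and a C26 replicate 1 peak inside Jph2. A single library, CTRL replicate 2, accounted alone for 12 of the 31 sites. Sites were merged for the peaks of these genes only, and the shares of these patterns among all peaks were not computed. Both C26 lists were shorter than both CTRL lists. Whether sites with CTRL peaks alone were more common at these genes than elsewhere is therefore unknown.

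The comparison of C26 with CTRL muscle asks whether fewer phospho-CREB1 peaks were called around these genes in tumor-bearing muscle. It was made since the series title speaks of impaired cAMP and CREB1 signaling. Peak counts do not measure the amount of the protein. The 10 genes had 4.5 ± 2.12 assigned peaks per library in C26 muscle and 21 ± 8.49 in CTRL muscle (SD, n = 2 each), a difference of −16.5 (C26 minus CTRL, two-sided exact permutation p = 0.333, the smallest that 2 libraries against 2 allow). Both C26 libraries lay below both CTRL libraries, and without CTRL replicate 2 the difference was −10.5. The C26 lists were shorter as a whole, with 7482 and 4051 peaks in replicates 1 and 2 against 10835 and 14975 in CTRL replicates 1 and 2. Per 1000 peaks of a list, the 10 genes held 0.802 and 0.741 peaks in C26 replicates 1 and 2, and 1.38 and 1.80 in CTRL replicates 1 and 2. With the 4051 strongest peaks of each list alone, the 10 genes kept 2 and 3 peaks in C26 replicates 1 and 2, and 3 and 2 in CTRL replicates 1 and 2, a difference of 0 (exact permutation p = 1). In C26 replicates 1 and 2 the trimmed lists reached down to a −log10 q of 8.11 and 1.35. In CTRL replicates 1 and 2 they stopped at 14.4 and 18.1. With a −log10 q of at least 5 in every list, C26 replicates 1 and 2 had 3 and 1 assigned peaks. CTRL replicates 1 and 2 had 12 and 16, a difference of −12 (exact permutation p = 0.333). Beyond these counts, the part that list length played in the untrimmed difference was not tested.

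The density of peaks around these genes was set against that around all genes. The windows of the 10 genes covered 0.715 Mb and those of all protein-coding genes 1288 Mb. The 10 genes had 8.39 peaks per Mb in C26 replicate 1, against 5.36 for all genes, and 4.20 in C26 replicate 2, against 2.86. In CTRL replicates 1 and 2 they had 21.0 and 37.8 peaks per Mb, against 7.64 and 10.5 for all genes. The density was thus above that of all genes in every library, although the median percentiles of these peaks, given below, ran from 14.3 to 46.3. In C26 replicates 1 and 2 the density rests on 6 and 3 peaks. Of these, 4 and 2 lay inside their gene or within 1000 bp of its ends, as did 12 of 15 and 19 of 27 in CTRL replicates 1 and 2. The others lay farther outside, some of them inside neighboring genes. The median percentile of the assigned peaks was 27.3 and 14.3 in C26 replicates 1 and 2, and 46.3 and 37.8 in CTRL replicates 1 and 2.

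Where the assigned peaks lay was set against the peaks of the whole lists, as a description with no test. Within 1000 bp of an end of a protein-coding gene lay 2 of 6 assigned summits in C26 replicate 1 and 0 of 3 in C26 replicate 2, against 65.9% and 62.8% of all summits in these lists (95% Wilson intervals 64.8 to 66.9 and 61.3 to 64.3). In CTRL replicates 1 and 2 the counts were 5 of 15 and 7 of 27, against 60.2% and 53.3% of all summits (59.3 to 61.2 and 52.5 to 54.1). The intervals cover counting error only. The assignment rule took whole gene spans with 10000 bp on each side, which by itself gives room to summits away from gene ends, and its part in this contrast was not tested. A summit inside the span, more than 1000 bp from both ends, was present in C26 replicate 1 at 2 of the 10 genes (Ryr1 and Jph2, compared with 6.79% of all protein-coding genes) and in C26 replicate 2 at 2 others (Atp2a1 and Cacnb1, 4.00% of all genes). In both CTRL libraries it was present at 4 of the 10 (Casq1, Atp2a1, Cacnb1 and Jph2, 8.32% of all genes). Casq1 was the 1 gene with such a summit in both CTRL libraries and no C26 library (2.70% of all genes).

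**Figure D3:**
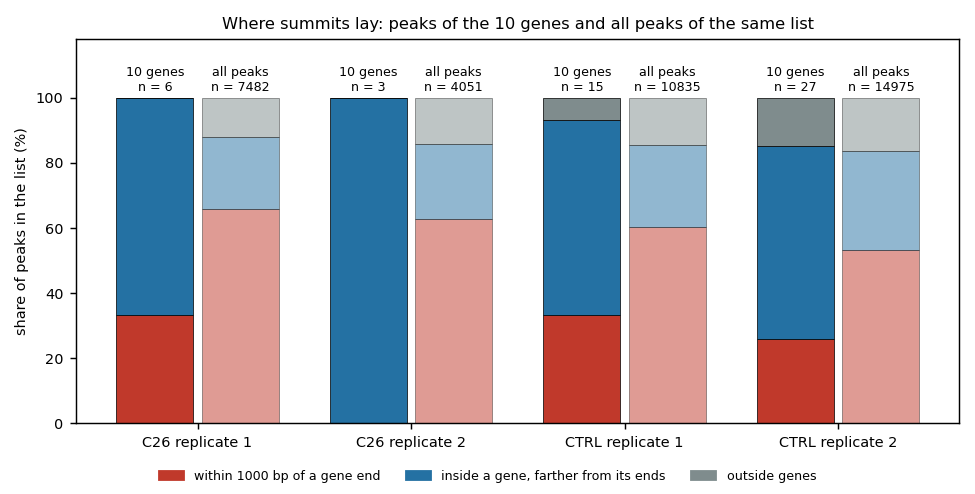
Share of peak summits within 1000 bp of a protein-coding gene end (red), inside a gene farther from its ends (blue) and outside genes (grey), for peaks of the 10 genes (left bar of each pair, full color) and all peaks of the same list (right bar, pale), with the number of peaks above each bar. The red share of the 10 genes is below that of the whole list in all 4 libraries, and rests on 3 to 27 peaks.

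At gene ends the counts were near those of all genes in CTRL muscle. C26 replicate 1 had a gene-end peak at 1 of the 10 genes (Jph1, 26.1% of all genes) and C26 replicate 2 at none (14.0%). Both CTRL libraries had one at 4 of the 10, Ryr1, Atp2a1, Atp2a2 and Jph1, compared with 32.2% of all protein-coding genes. Of these, Ryr1, Atp2a1 and Atp2a2 had none in either C26 library, a pattern of 7.40% of all genes. For Ryr1 the end peaks of the CTRL libraries lay at different places, with summits 939 bp inside the end in replicate 1 and 132 bp beyond it in replicate 2. At the site it shared with C26 replicate 1, the summit lay 1252 bp from the end in C26 replicate 1 and 1152 bp in CTRL replicate 2, both just past the 1000-bp limit. A gene-end peak in every library was found at none of the 10 (12.7% of all genes), and 5 had none in any (57.7%). With lists trimmed to the 4051 strongest peaks, Jph1 alone kept its end peaks in both CTRL libraries, and the share of all genes was not computed there. Under the 10000-bp rule no gene of the 10 had peaks in both C26 libraries without a CTRL peak (0.0366% of all genes).

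A list of 88 other genes of excitation, calcium transport and calcium signaling places these values in their pathway. Both C26 libraries had a gene-end peak at 10 of the 88 (11.4%, against 13.0% of all protein-coding genes), and both CTRL libraries at 37 (42.0%, against 32.2%). The 10 were all among the 37, and 11 of the 37 had none in C26 muscle (12.5% of the 88, against 7.40%). Without C26 replicate 2, 26 genes had one in every remaining library, and the 11 became 27 without C26 replicate 1 and 24 without CTRL replicate 1. In lists trimmed to the 4051 strongest peaks, 11 genes had one in both CTRL libraries and 0 of these were without one in either C26 library. Shares of all genes for these patterns, in trimmed lists or with a library left out, were not computed. By role, both CTRL libraries had such a peak at 12 of 17 genes for calcium binding and calcium signaling, 9 of 21 other genes of the voltage sensor and triad, 5 of 12 of store-operated entry and IP3 receptors, 4 of 8 of mitochondrial uptake, 4 of 11 of membrane excitability, 2 of 7 of T-tubule shape, and 1 of 12 of SERCA regulators and other pumps and exchangers.

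Of the 88 genes, 30 had no gene-end peak in any library (34.1%, against 57.7% of all protein-coding genes). The genes named next were picked from the 88 partly for their highest percentiles, so a high rank follows from the choice. The strongest of their gene-end peaks ranked above those of the 10 genes within the same list. Atp2b1, a calcium pump of the plasma membrane, had peaks of 25.2- and 20.6-fold in C26 replicates 1 and 2, and 23.0- and 48.0-fold in CTRL replicates 1 and 2, at percentiles 93.8 to 97.2 of their lists. Homer1 had 18.3- and 14.3-fold in C26 replicates 1 and 2, and 32.9- and 41.8-fold in CTRL replicates 1 and 2. Orai1, the pore of store-operated calcium entry, had 9.17- and 8.73-fold in C26 replicates 1 and 2, and 8.71- and 27.2-fold in CTRL replicates 1 and 2. Peaks in all 4 libraries were also found at the calmodulin genes Calm2 and Calm3, at the kinase gene Camk2d, at Ppp3cb, which encodes a catalytic subunit of calcineurin, at Smdt1, at Tmem38a, which encodes a cation channel of the sarcoplasmic reticulum, and at Sypl2, which encodes a triad protein. The peaks of Smdt1, Tmem38a and Sypl2 also lay at the ends of the neighboring genes Pheta2, Smim7 and Atxn7l2.

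Of the genes bound at an end in both CTRL lists but in no C26 list, Fkbp1a, which encodes a binding protein of the release channel, had 6.15- and 12.2-fold in CTRL replicates 1 and 2. Bin1, which encodes a protein that shapes T-tubules, had 3.39- and 10.8-fold in CTRL replicates 1 and 2. Promoter sequences were at hand for 10 of these 12 genes, and 7 of the 10 had a core motif in at least 1 of them. The 12 genes were picked for their peaks, and the share of promoters with a core motif was 76.3% among those with a summit in all 4 libraries and 20.8% among all.

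**Figure D4:**
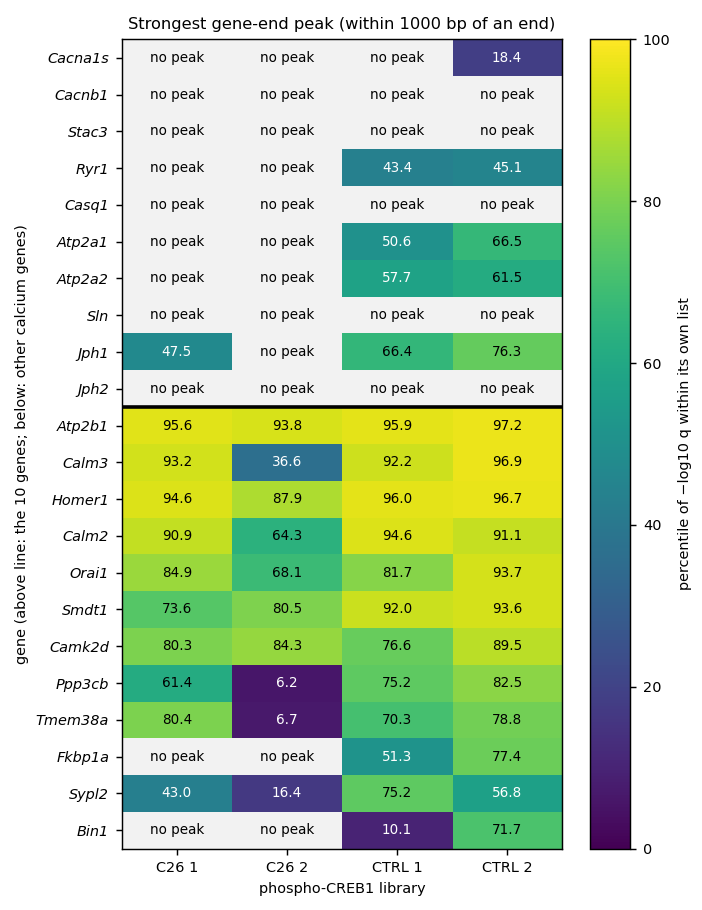
Strength percentile, within its own list, of the strongest peak within 1000 bp of an end of each gene (rows) in each phospho-CREB1 library (columns, C26 left of CTRL), for the 10 genes above the line and for 12 other calcium genes below it. The values above the line go up to 76.3, and those below it up to 97.2 for Atp2b1. The 12 genes were picked partly for high percentiles.

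Over the 4 libraries, the gene-end pattern of Ryr1 was most like those of Cacna2d1, a further subunit of the voltage sensor, and Hrc, a calcium-binding protein of the store, with mean absolute differences of 2.55 and 3.17 percentile points. Atp2a1 was most like Fkbp1a (2.92 points), and Atp2a2 was most like Dnm2, which encodes a membrane-remodeling GTPase (2.41 points). The second match of both was Rcan1, a gene of the calcium signaling group (3.91 points for Atp2a1 and 4.61 for Atp2a2). Rcan1 had a weak gene-end peak in C26 replicate 1 (percentile 4.86). A missing peak counted as percentile 0, so shared absence from the C26 lists weighs in each of these values.

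Gene-end peaks at marker genes of cell types were counted as a description, which does not test which cells the tissue held. Of 10 genes typical of skeletal muscle fibers, 2 had a gene-end peak in both C26 libraries, compared with 13.0% of all protein-coding genes, and 7 in both CTRL libraries, compared with 32.2%. Among these 10, Myh1 and Myh2 had none in any library, and Myh4 had one in CTRL replicate 2 alone. Of 19 markers of endothelium, fibroblasts, leukocytes, smooth muscle and heart, none had one in both libraries of either group, and 2 had one in CTRL replicate 2 alone.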

How the data were processed

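Per the submitters' processing notes, the authors used MACS2 2.1.4, Bowtie2 2.3.5.1, SAMtools 1.6, FastQC 0.11.2 and Picard with build mm10 (GRCm38). Per the labels, chromatin was crosslinked and precipitated with 5 µg of antibody to CREB or phospho-CREB1, while the titles say phospho-CREB1. The authors deposited 1 peak list per library, not pooled, called against its input. Its fold enrichment is a ratio over input, and the −log10 p, −log10 q and integer score come from the authors' peak caller. The labels also name a filter by an abbreviation they do not spell out. Depth is unknown.

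Gene spans came from the RefSeq table for GRCm38.p6. Summits, spans and overlaps were compared in Python 3.11.15 (pandas 2.3.3, numpy 2.4.6, scipy 1.17.1), with the counting tested on simulated data. The members and gene lists were chosen with earlier results of these data known. All 10 members are named. Other calcium genes are named where a gene-end peak was in all 4 libraries or in both libraries of 1 group alone, at most 12 by highest percentile, and where their percentiles were most like those of a member. The likeness result for Jph1 is not reported here. Presence counts carry no test. Alternatives were other windows, a −log10 q of at least 5, lists trimmed to the shortest, any overlap of the peak, and leaving out each library.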

Additional observations from a re-analysis of the deposited data

How the results depend on the processing

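The 1 gene with a peak in both C26 libraries, and in all 4, became 0 with windows of 5000, 1000 and 0 bp, with a −log10 q of at least 5 and with trimmed lists. Both counts ran from 1 to 5 when 1 library was left out (2 without C26 replicate 1, 5 without C26 replicate 2). The 7 genes found in both CTRL libraries became 2 with trimmed lists, Casq1 and Jph1. The 1 gene with CTRL peaks alone became 2 with the 1000-bp window, 2 with the stricter q and 0 with trimmed lists, and ran from 1 to 5 with 1 library left out. The count of genes with C26 peaks alone was 0 in every alternative run. The difference in assigned peaks was 0 with trimmed lists, −12 with a −log10 q of at least 5, and −8.5 with the window of 0 bp. It was between −22.5 and −10.5 with 1 library left out. Replicate numbers in the labels do not say that they pair libraries, and with the replicate block the difference was −16.5 (exact permutation p = 0.5). Apart from the single-library shares given above, no share of all protein-coding genes was computed for these alternatives. Whether the counts move more at the 10 genes than at all genes is therefore unknown.

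The 14 sites shared by at least 2 libraries became 13 when sites were joined by summits within 200 bp. The alternatives that follow were chosen after seeing the data. The 14 sites ran from 4 to 13 with 1 library left out (7 without CTRL replicate 1, 4 without CTRL replicate 2). The 4 genes bound at an end in both CTRL libraries became 2 when only listed transcription starts counted, and 1 with trimmed lists. Of the 88 other genes, the 37 in both CTRL libraries became 11 with trimmed lists, the 10 in all 4 libraries ran from 10 to 26 with 1 library left out, and the 11 with CTRL peaks alone became 0 with trimmed lists and ran from 11 to 27 with 1 library left out. For these gene-end alternatives no share of all genes was computed. Depth is unknown, so a missing peak is not shown to be missing binding, and why these counts move was not tested.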
